A study of Mus musculus and Homo sapiens with 18 samples.

Results

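The genes described here encode the chains of the integrins and laminins, the main receptors by which cells hold on to the extracellular matrix and the glycoproteins that organise basement membranes. They were chosen by symbol, as every mouse gene with a protein-coding transcript named Itga, Itgb, Lama, Lamb or Lamc followed by a chain number or letter. This gave 37 of the 55858 genes in the mouse tables, 18 integrin alpha chains, 8 integrin beta chains and 11 laminin chains. The rule uses symbols and no expression value, but the set was proposed with earlier results of these data known.

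An integrin is a heterodimer of an alpha and a beta chain, and the pairing sets the ligand. Itgb1 is the shared partner of most alpha chains, Itga3, Itga6 and Itga7 give laminin receptors, Itga1, Itga2, Itga10 and Itga11 give collagen receptors, and Itga5 and Itgav give receptors for the RGD motif of fibronectin and vitronectin. Itga6 paired with Itgb4 is the receptor of hemidesmosomes, the anchors of basal epithelial cells such as those of the urothelium. A laminin is a trimer of an alpha, a beta and a gamma chain. The alpha chain carries most of the integrin binding, and Lama3 and Lamb3 belong to the laminin beneath epithelia.

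RNA came from 12 mouse libraries in 4 groups of 3. Relapsed tumours were from a mouse bladder carcinoma model labelled GEMM (genetically engineered mouse model) and had been treated with chemotherapy, for which the protocol names cisplatin plus gemcitabine. Control tumours were of the same model, and a vehicle is the control treatment that the protocol names. CUUC-G, which the design text calls a cell line and the labels a GEMM sample of bladder, had been given either a guide that targets Igfbp5, labelled sgIgfbp5, or the control guide sgScr. The labels call the targeted cells a knockdown and the design text a knockout, and name no strain, age, driver allele or clone. They do not say whether the libraries of a group came from separate tumours or cultures, so p-values measure only the spread between these libraries. The 6 human libraries of the series were not analysed here.

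Depth was even, from 18.965 to 21.757 in units of 1e6 estimated counts per library. Igfbp5 had 12, 8 and 10 counts in the sgIgfbp5 libraries, against 20, 51 and 43 in the sgScr libraries. It had 36, 64 and 49 counts in relapsed tumours, against 4, 17 and 6 in control tumours. The Y-linked gene Ddx3y had no count in any relapsed, sgIgfbp5 or sgScr library, against 27.8 to 31.5 TPM in the control tumours (TPM is a level scaled for transcript length to a total of 1000000 per library). Xist lay between 50.2 and 60.6 TPM in relapsed tumours and at 0.0136 TPM or less in control tumours, so sex or animal of origin cannot be told apart from relapse. Within CUUC-G, Xist had 189, 114 and 200 TPM in sgIgfbp5 cells, against 59.3, 44.9 and 39.8 TPM in sgScr cells. The cause of that difference was not tested. Of the urothelial and epithelial markers, Krt5 and Upk3a had no count in any library, and Krt8 lay between 116 and 120.3 TPM in relapsed tumours, against 0 to 0.0462 TPM in control tumours. The 11 epithelial markers summed to 334 to 352 TPM in relapsed, 5.98 to 7.98 TPM in control, 82.6 to 98.0 TPM in sgIgfbp5 and 333 to 342 TPM in sgScr libraries. Relapsed tumours resembled sgScr cells more than control tumours. Over 13472 genes, Pearson's r of log2(TPM + 1) between libraries was 0.967 to 0.971 for relapsed with sgScr and 0.882 to 0.888 for relapsed with control. Relapsed libraries correlated with each other at 0.974 to 0.975, little above their values with sgScr. The sgIgfbp5 libraries correlated less with sgScr, at 0.871 to 0.880, than with control tumours, at 0.897 to 0.909. These bulk values cannot tell fewer cells of a type from less RNA per cell.

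Relapsed tumours had more mRNA of the laminin receptor chains Itga3 and Itga7, of the integrin beta chains Itgb2, Itgb3, Itgb7 and Itgb8 and of the laminin chain Lama4 than control tumours. They had less of the shared beta chain Itgb1, of Itga6 and of Lama1. Of the 37 chains, 29 passed the filter on low counts and were tested with edgeR. At an adjusted p under 0.05, 14 were higher, 11 lower and 4 did not pass, and 8 were not tested. That is 86.2% of the chains tested, against 73.5% of all 14373 genes (36.6% higher, 36.9% lower). With a change of at least 2-fold as well, 12 chains were higher and 6 lower, 62.1% of those tested, against 25.2% of all genes. The median log2 fold change was 0.22 over the tested chains and 0.00189 over all genes. Itga2, Lama3 and Lamb3 passed the filter through the relapsed libraries, with 12, 15 and 16 counts over the control libraries. Chains of this kind could hardly be called lower, and they are part of the 14 higher and of the 12 higher by 2-fold. The counts of tested chains are thus not counts of all members.

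In CUUC-G, the sgIgfbp5 cells had less mRNA than the sgScr cells for most tested chains, among them Itga2, Lama3, Lama4, Itgb2, Itgb7, Itgb3 and Itga5. The laminin chains Lama5 and Lamb2 and the integrin chains Itga10 and Itga2b were higher. Of 29 tested chains, 7 were higher, 19 lower and 3 did not pass. This is 89.7% of those tested, against 70.8% of all 14553 genes (36.5% higher, 34.3% lower). With a 2-fold change added, 4 chains were higher and 13 lower, 58.6% of those tested, against 31.3% of all genes. The median log2 fold change was -0.60 over the tested chains and 0.0588 over all genes. Itga2, Lama3 and Lamb3 passed the filter through the sgScr libraries, with 3, 2 and 26 counts over the sgIgfbp5 libraries. Such chains could hardly be called higher, and they are part of the 19 lower and of the 13 lower by 2-fold. All 6 integrin beta chains that passed were lower and the 7th, Itgb8, did not pass.

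Among the 22 chains with at least 1 TPM in relapsed tumours or in sgScr cells, the level in relapsed tumours over that in sgScr cells ran from 0.790 for Itgb7 to 1.83 for Lama1, with all 22 within 2-fold. These levels come from tables that were deposited separately, so this is a description without a test. Libraries that resemble each other thus serve as the treated group in one comparison and as the control in the other, and signs that differ between the comparisons are not counted here.

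**Figure D1:**
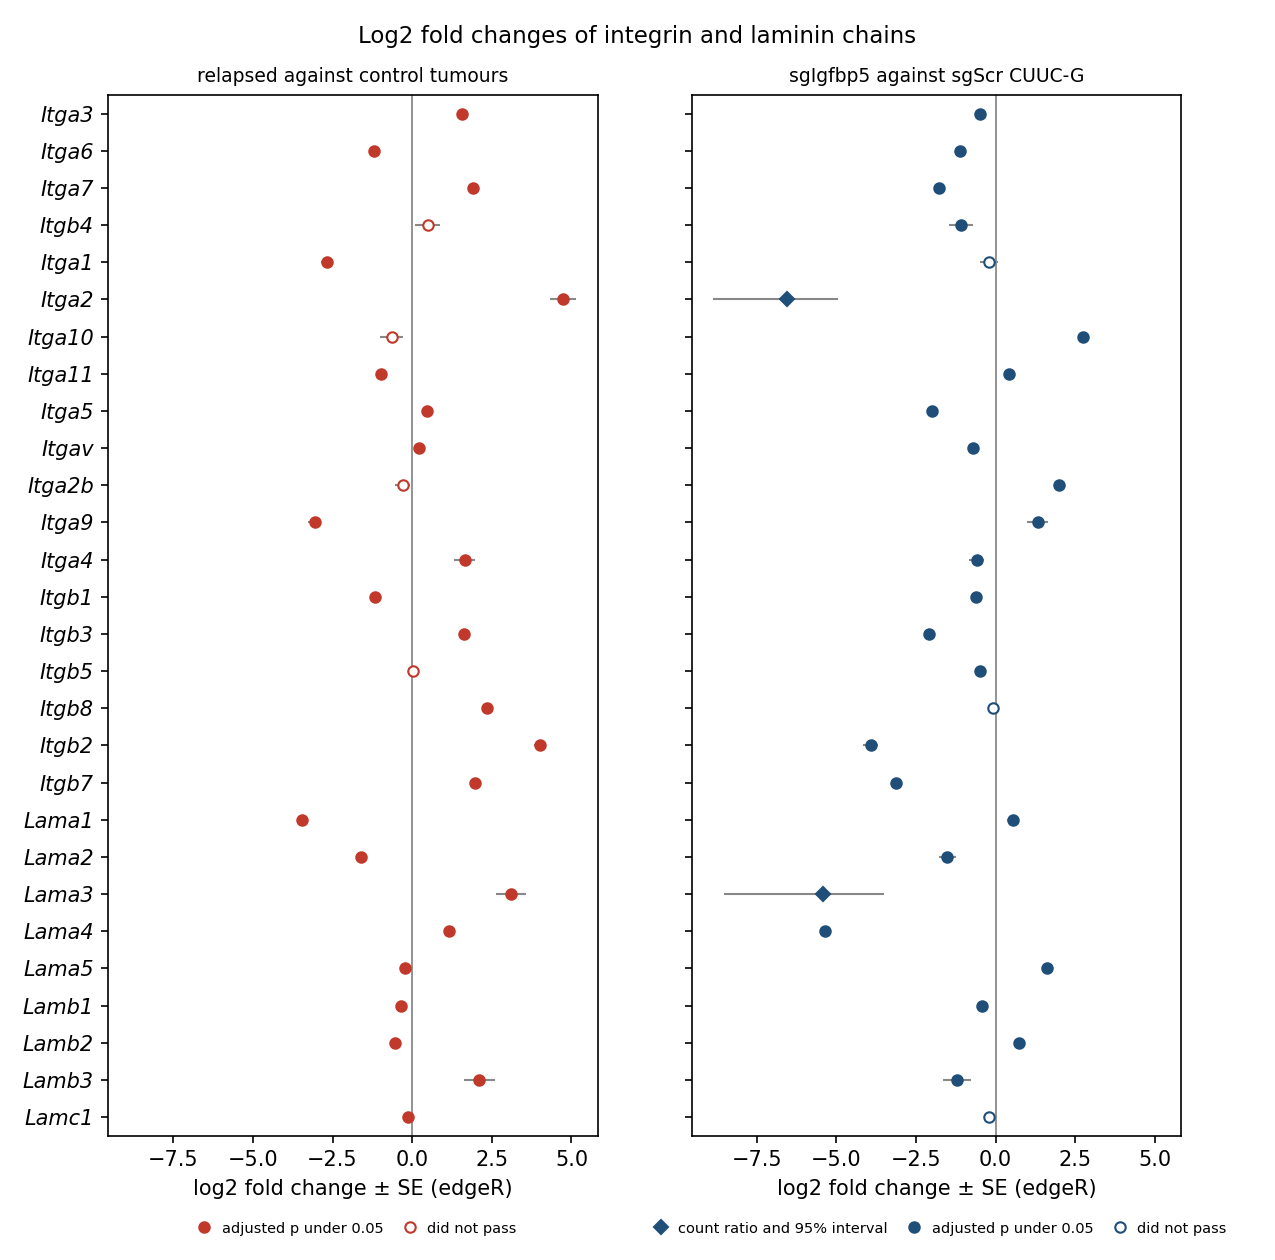
Log2 fold changes with their standard errors for tested chains, relapsed against control tumours on the left and sgIgfbp5 against sgScr cells on the right. Filled points passed an edgeR adjusted p under 0.05, open points did not, and diamonds mark Itga2 and Lama3, which had 3 and 2 counts in the sgIgfbp5 libraries and are drawn as a ratio of counts with its 95% interval. At relapse points lie on both sides of 0, and in CUUC-G most passing points lie left of it.

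Itgb1, the beta chain that most alpha chains need, was the most abundant of the 37 chains in every group. Itgb1 had 272, 275 and 270.4 TPM in relapsed tumours, against 647, 673 and 679 TPM in control tumours. The log2 fold change, fitted on counts, was -1.17 ± 0.03 (SE, n = 3 per group here and below). Itgb1 had 189, 169.9 and 186 TPM in sgIgfbp5 cells, against 275, 255 and 251 TPM in sgScr cells, a log2 fold change of -0.60 ± 0.07. The groups did not overlap in either comparison. How many of all genes had no overlap was not counted. Here and below, no overlap therefore describes a chain and does not set it apart from other genes. As a share of the summed TPM of all 8 beta chains, Itgb1 made up 61.0% ± 0.73 in relapsed tumours and 82.2% ± 0.40 in control tumours, and 62.9% ± 1.55 in sgIgfbp5 cells and 59.5% ± 1.94 in sgScr cells (SD, n = 3).

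The alpha chains of the laminin receptors moved in different directions at relapse. Itga3, which gives a receptor for laminins with Lama3 or Lama5, had 41.2, 41.9 and 42.4 TPM in relapsed tumours, against 16.3, 15.2 and 15.3 TPM in control tumours, and rose with a log2 fold change of 1.57 ± 0.05. Itga7, best known as the laminin receptor of muscle, had 18.2, 18.4 and 18.9 TPM in relapsed tumours, against 6.30, 4.89 and 5.29 TPM in control tumours, a log2 fold change of 1.90 ± 0.09. Itga6 went the other way, with 14.6, 16.4 and 16.4 TPM in relapsed tumours, against 38.1, 40.4 and 40.6 TPM in control tumours, and fell by 1.21 ± 0.06 on the log2 scale. None of these 3 chains overlapped between the groups. In control tumours Itga6 was the most abundant of the 3, and in relapsed tumours Itga3 was. Itga3 had 15.6 TPM beside 666 TPM of Itgb1 in control tumours, a ratio of 42.7 for the pair, which was 6.51 in relapsed tumours.

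In CUUC-G all 3 alpha chains were lower with sgIgfbp5. Itga7 had 6.47, 5.60 and 6.39 TPM in sgIgfbp5 cells, against 19.6, 19.3 and 17.5 TPM in sgScr cells, and fell by 1.79 ± 0.08 on the log2 scale. Itga6 had 7.11, 6.12 and 8.03 TPM in sgIgfbp5 cells, against 15.6, 14.3 and 14.4 TPM in sgScr cells, a log2 fold change of -1.11 ± 0.11. Itga3 had 29.5, 34 and 33.8 TPM in sgIgfbp5 cells, against 45.8, 42.4 and 38.9 TPM in sgScr cells, a log2 fold change of -0.50 ± 0.07. The libraries of the groups did not overlap for any of the 3. Of the summed alpha chain TPM, the share of Itga3 was 19.1% ± 1.62 in sgIgfbp5 cells and 13.1% ± 0.15 in sgScr cells (SD, n = 3), so a lower level went with a larger share of a smaller total.

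Itgb4, the partner of Itga6 in hemidesmosomes, was at low levels in all 4 groups. It had 0.716, 0.355 and 0.230 TPM in relapsed tumours, against 0.306, 2.59 and 0.234 TPM in control tumours, and the counts gave a log2 fold change of 0.48 ± 0.39 (edgeR adjusted p = 0.267). In control tumour 2, 92.7% of the Itgb4 TPM came from transcripts under 1000 bases, and the one listed above 0 there has no annotated coding frame. In CUUC-G it had 0.206, 0.105 and 0.122 TPM in sgIgfbp5 cells, against 0.242, 0.293 and 0.318 TPM in sgScr cells, a log2 fold change of -1.08 ± 0.39 (edgeR adjusted p = 0.0261). That call was lost when sgScr library 2 or 3 or sgIgfbp5 library 2 or 3 was left out, with adjusted p from 0.0740 to 0.0911, and with DESeq2 (adjusted p = 0.0726).

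Itga6 and Itga7 each have alternative coding exons, and the tumour tables give the transcripts separately. The mRNA of Itga6 ends in alternative ways that give the cytoplasmic tails called alpha6A and alpha6B, and Itga7 carries one of a pair of mutually exclusive exons in the laminin-binding head of the chain. The stretches below, from the GRCm38 genome with GENCODE M21 exons, are shown because they set the compared transcripts apart. Capitals mark coding bases of the exon, and lower case the 15 transcript bases at its border. Of the 3 Itga6 transcripts compared, only Itga6-201 holds exon 25 of 26 at chr2:71853534-71853663 on the plus strand, of whose 130 bases 105 are coding, and these are the alpha6A tail. Itga7-201 holds exon 5 of 25 at chr10:128941822-128941941 (120 bases) where Itga7-202 holds chr10:128941445-128941576 (132 bases), both on the plus strand.
Itga6-201: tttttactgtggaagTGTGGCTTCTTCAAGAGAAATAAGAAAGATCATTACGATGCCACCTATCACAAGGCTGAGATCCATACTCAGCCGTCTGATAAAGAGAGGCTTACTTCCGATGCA
Itga7-201: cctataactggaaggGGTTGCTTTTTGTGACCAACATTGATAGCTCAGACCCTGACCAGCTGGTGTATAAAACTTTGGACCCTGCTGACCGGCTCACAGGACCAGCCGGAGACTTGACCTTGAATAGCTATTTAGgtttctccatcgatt
Itga7-202: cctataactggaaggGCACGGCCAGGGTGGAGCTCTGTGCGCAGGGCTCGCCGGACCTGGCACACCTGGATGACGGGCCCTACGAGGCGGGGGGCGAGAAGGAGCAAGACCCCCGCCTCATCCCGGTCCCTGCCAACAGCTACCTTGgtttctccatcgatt

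Itga6-201, with the exon above, had 6.35, 7.02 and 7.70 TPM in relapsed tumours, against 15.8, 13.9 and 14.7 TPM in control tumours. Itga6-202, the full-length transcript without it, had 0.297, 0 and 0.476 TPM in relapsed tumours, against 2.61, 7.42 and 4.13 TPM in control tumours. Its share of the pair was 4.46%, 0% and 5.82% in relapsed tumours, against 14.2%, 34.9% and 22% in control tumours. The relapsed minus control difference was -20.2 percentage points, the groups did not overlap, and the exact two-sided permutation test gave p = 0.1, the smallest that 3 against 3 libraries allow. The third Itga6 transcript plotted, 2721 bases long, has no annotated coding frame and also lacks the exon. It had 7.85, 7.74 and 8.06 TPM in relapsed tumours, against 19.1, 18.3 and 20.1 TPM in control tumours. With it counted among the transcripts without the exon, their share was 53.7% ± 2.13 in relapsed tumours and 61.7% ± 3.56 in control tumours (SD, n = 3; exact permutation p = 0.1), so the size of the difference depends on how that entry is counted.

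Itga7-201 was listed at 4.75, 5.08 and 2.75 TPM in relapsed tumours, against 0, 0 and 0.107 TPM in control tumours. Itga7-202 was the more abundant transcript in every tumour, with 12.9, 12.5 and 14.2 TPM in relapsed tumours, against 6.30, 4.04 and 5.14 TPM in control tumours. The share of Itga7-201 in the pair was 26.9%, 28.8% and 16.3% in relapsed tumours, against 0%, 0% and 2.05% in control tumours, a relapsed minus control difference of 23.3 percentage points without overlap (exact permutation p = 0.1, the smallest possible). The third Itga7 transcript plotted, the protein-coding Itga7-206, had 0.346, 0.599 and 1.97 TPM in relapsed tumours, against 0, 0.709 and 0 TPM in control tumours. Which of the 2 exons it holds was not examined, and the share leaves it out. These are estimates by which shared reads were divided among transcripts, and the error of that division is not in the deposited values. The CUUC-G tables are per gene and hold no such split.

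**Figure D2:**
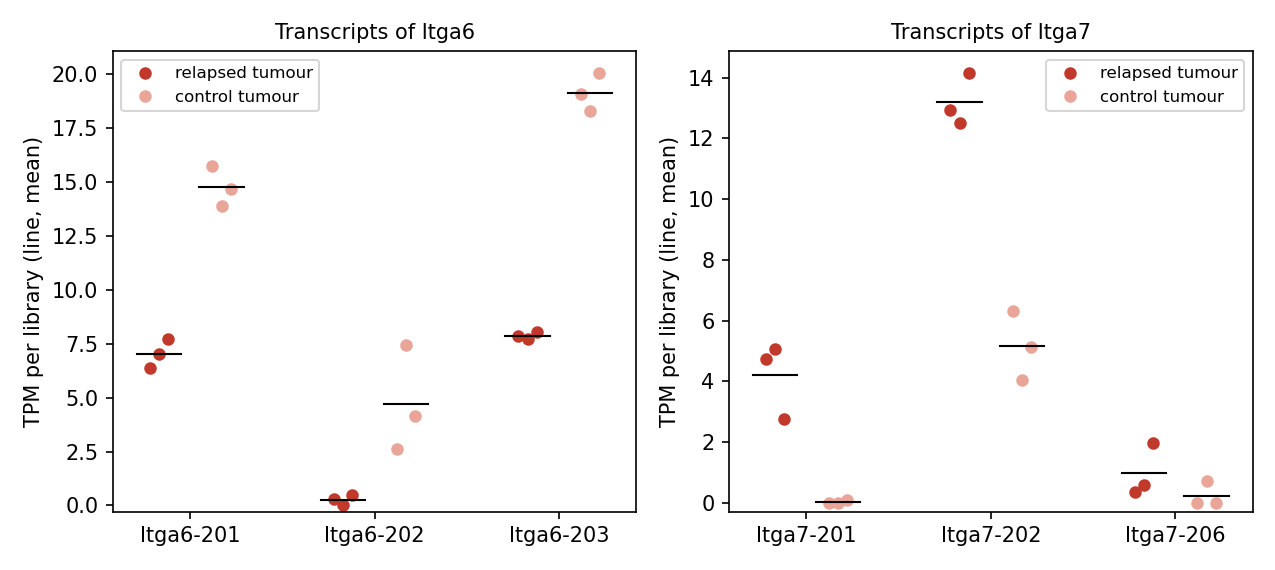
TPM of the named transcripts of Itga6 (left) and Itga7 (right) in each tumour library, relapsed left of control for each transcript, with a line at the group mean. Itga6-202 lies between 0 and 0.476 TPM in relapsed tumours and at 2.61 TPM or more in control tumours, and Itga7-201 at 2.75 TPM or more in relapsed tumours and at 0.107 TPM or less in control tumours.

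Collagen receptor alpha chains were low throughout, at 3.48 TPM or less in every library, and at relapse Itga2 was higher while Itga1 and Itga11 were lower. Itga1 had 0.400, 0.512 and 0.162 TPM in relapsed tumours, against 3.02, 3.48 and 2.32 TPM in control tumours, and fell by 2.67 ± 0.19 on the log2 scale. Its neighbour Itga2, which lies 25978 bases away on chromosome 13, had 0.746, 1.29 and 1.27 TPM in relapsed tumours, against 0.0806, 0.0117 and 0.0341 TPM in control tumours, a log2 fold change of 4.73 ± 0.40 on 326 counts against 12. Itga2 is the collagen receptor chain best known from epithelia and platelets. The groups did not overlap for either gene. Itga11, a chain of fibroblasts that binds fibrillar collagen, averaged 1.43 ± 0.0445 TPM in relapsed tumours and 3.06 ± 0.310 TPM in control tumours (SD, n = 3) and fell by 0.98 ± 0.15 on the log2 scale. Itga10, known from cartilage, had 0.455 ± 0.337 TPM in relapsed tumours and 0.573 ± 0.117 TPM in control tumours (SD, n = 3) and missed the threshold, at a log2 fold change of -0.65 ± 0.35 (edgeR adjusted p = 0.0978). Without relapsed tumour 1 it was -1.0 with an edgeR adjusted p of 0.0320.

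In CUUC-G, Itga2 had 2, 0 and 1 counts in sgIgfbp5 cells, against 100, 91 and 74 counts in sgScr cells. The sgScr to sgIgfbp5 ratio, scaled for depth, was 94.0 with a 95% interval from 31.8 to 459, which covers counting error only. Itga10 was higher, with 2.55, 2.90 and 3.24 TPM in sgIgfbp5 cells, against 0.389, 0.341 and 0.677 TPM in sgScr cells, a log2 fold change of 2.76 ± 0.17 and no overlap. Itga11 averaged 2.16 ± 0.438 TPM in sgIgfbp5 cells and 1.51 ± 0.110 TPM in sgScr cells (SD, n = 3), with a log2 fold change of 0.42 ± 0.17 (edgeR adjusted p = 0.0428). Its CPM, the counts scaled for depth, overlapped between the groups, and the call was lost without sgScr library 1 or 2 or sgIgfbp5 library 1 or 3 (adjusted p from 0.110 to 0.212) and with DESeq2 (adjusted p = 0.150). Itga1 did not pass, at 0.385 ± 0.0586 TPM in sgIgfbp5 cells and 0.427 ± 0.0715 TPM in sgScr cells (SD, n = 3), with a log2 fold change of -0.20 ± 0.28 (edgeR adjusted p = 0.548).

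The alpha chains of the RGD receptors were the most abundant alpha chains. Itga5, which with Itgb1 gives the classical fibronectin receptor, had 140.0, 143 and 143 TPM in relapsed tumours, against 114, 115 and 118 TPM in control tumours, a log2 fold change of 0.46 ± 0.03. Itgav, the partner of several beta chains, had 112, 103 and 101 TPM in relapsed tumours, against 92.9, 99.9 and 97.7 TPM in control tumours. Its log2 fold change on counts was 0.22 ± 0.04. On log2(TPM + 1) the same difference was 0.12 and did not pass with limma (adjusted p = 0.0736), and 34.7% to 39.4% of the Itgav TPM in the tumours came from transcripts under 1000 bases. In that limma fit the median over all genes was -0.12, against 0.00189 in the fit on counts.

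Itga5 showed one of the larger differences among the abundant chains in CUUC-G. It had 37.8, 42.7 and 42.1 TPM in sgIgfbp5 cells, against 155, 149 and 142 TPM in sgScr cells, and fell by 2.0 ± 0.07 on the log2 scale. Itgav had 66.6, 60.5 and 71.6 TPM in sgIgfbp5 cells, against 109, 87.1 and 79.5 TPM in sgScr cells, a log2 fold change of -0.71 ± 0.08. Neither chain overlapped between the groups. Itga5 was the leading alpha chain in relapsed and control tumours and in sgScr cells, and in sgIgfbp5 cells Itgav was. The shares of the summed alpha chain TPM were 24.0% ± 1.82 for Itga5 and 38.9% ± 1.71 for Itgav in sgIgfbp5 cells, against 46.2% ± 1.77 and 28.3% ± 2.40 in sgScr cells (SD, n = 3). The summed TPM of the 18 alpha chains was 170.1 ± 7.68 in sgIgfbp5 cells and 323 ± 25.5 in sgScr cells, and 330.5 ± 2.0 in relapsed tumours and 286 ± 3.77 in control tumours.

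The beta chains that pair with Itgav differed from each other. Itgb5, which gives a vitronectin receptor, had 124, 121 and 123 TPM in relapsed tumours, against 131, 129 and 131 TPM in control tumours, and did not pass on counts, at a log2 fold change of 0.03 ± 0.03 (edgeR adjusted p = 0.467). On log2(TPM + 1) with limma its difference was -0.09 (adjusted p = 0.0413), so its direction depends on the scale. The median over all genes was -0.12 in that limma fit and 0.00189 in the fit on counts. Itgb8, whose dimer with Itgav releases active TGF-beta, had 13.4, 13.2 and 12.3 TPM in relapsed tumours, against 3.0, 3.12 and 2.73 TPM in control tumours, and rose with a log2 fold change of 2.33 ± 0.07. Itgb3, known from platelets, osteoclasts and growing vessels, had 4.36, 4.77 and 4.70 TPM in relapsed tumours, against 1.70, 1.45 and 1.75 TPM in control tumours, a log2 fold change of 1.63 ± 0.12. Itgb8 and Itgb3 did not overlap between the groups. Itgb6, an epithelial partner of Itgav, had 7 counts over the relapsed and 6 over the control libraries and was not tested.

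In CUUC-G, Itgb3 had 1.32, 1.30 and 1.07 TPM in sgIgfbp5 cells, against 4.96, 5.16 and 4.6 TPM in sgScr cells, and fell by 2.08 ± 0.13 on the log2 scale. Itgb5 had 86.4, 94.6 and 91.4 TPM in sgIgfbp5 cells, against 122, 125 and 124 TPM in sgScr cells, a log2 fold change of -0.49 ± 0.07. Both were without overlap. Itgb8 did not pass, with 13.1, 8.09 and 12 TPM in sgIgfbp5 cells, against 13.0, 9.60 and 10.4 TPM in sgScr cells and a log2 fold change of -0.08 ± 0.16 (edgeR adjusted p = 0.660). Its sign turned to 0.01 without sgScr library 1 and to 0.03 without sgIgfbp5 library 2. The levels of Itgav and Itgb5 per gene stayed close in every group, with Itgb5 over Itgav at 1.16 in relapsed tumours, 1.35 in control tumours, 1.37 in sgIgfbp5 cells and 1.35 in sgScr cells. The Itgav level includes transcripts under 1000 bases. Its longest transcript, Itgav-201, alone had 63.9 to 67.8 TPM in relapsed tumours and 59.4 to 63.3 TPM in control tumours, so the closeness depends on counting the short ones.

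Itga2b, the alpha chain of the platelet fibrinogen receptor, had 1.83, 2.12 and 2.86 TPM in relapsed tumours, against 4.26, 2.48 and 2.77 TPM in control tumours, and did not pass (log2 fold change -0.29 ± 0.24, edgeR adjusted p = 0.273). Of its TPM in the tumours, 26.2% to 70.3% came from transcripts under 1000 bases. In CUUC-G it was higher, with 13.9, 9.30 and 9.49 TPM in sgIgfbp5 cells, against 1.33, 2.96 and 2.33 TPM in sgScr cells, a log2 fold change of 1.99 ± 0.15 without overlap. Its only beta partner is Itgb3, which was the scarcer chain of the pair in sgIgfbp5 cells, at 1.23 TPM beside 10.9 TPM, and the more abundant in sgScr cells, at 4.91 TPM beside 2.20 TPM. The 4 platelet and megakaryocyte markers summed to 0.433 to 0.960 TPM in sgIgfbp5 cells and 1.13 to 1.69 TPM in sgScr cells, with Pf4 at 0 in every library. Ppbp gave most of the sum in sgScr cells. Gp1ba, the only one of the 4 that was tested, was higher together with Itga2b, at 0.588 TPM in sgIgfbp5 cells and 0.175 TPM in sgScr cells, a log2 fold change of 1.68 ± 0.44. Their part in the Itga2b difference was not tested.

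Itga9 and Itga4 bind fibronectin, osteopontin and cell surface ligands and have no RGD preference of the classical kind. Itga9 had 0.620, 0.526 and 0.267 TPM in relapsed tumours, against 2.30, 3.15 and 1.96 TPM in control tumours, and fell by 3.06 ± 0.20 on the log2 scale. In CUUC-G it had 1.02, 0.322 and 0.535 TPM in sgIgfbp5 cells, against 0.236, 0.218 and 0.151 TPM in sgScr cells, a log2 fold change of 1.32 ± 0.34, which did not pass with limma on log2(TPM + 1) without a TPM filter (adjusted p = 0.129). Itga4 was under 1 TPM in all libraries. It had 0.404, 0.391 and 0.534 TPM in relapsed tumours, against 0.111, 0.188 and 0.257 TPM in control tumours, a log2 fold change of 1.64 ± 0.31, which did not pass with that limma fit either (adjusted p = 0.133). With sgIgfbp5 it had 0.341, 0.251 and 0.318 TPM, against 0.539, 0.466 and 0.366 TPM with sgScr, a log2 fold change of -0.60 ± 0.24 (edgeR adjusted p = 0.0450). That call was lost without sgScr library 1 or 2 or sgIgfbp5 library 2 or 3 (adjusted p from 0.0678 to 0.132) and with DESeq2 (adjusted p = 0.0975).

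Itgb2 and Itgb7 are known as beta chains of leukocytes, Itgb2 as the partner of Itgal, Itgam, Itgax and Itgad, and Itgb7 as the partner of Itga4 and Itgae. Itgb2 had 11.4, 9.63 and 7.93 TPM in relapsed tumours, against 0.652, 0.506 and 0.457 TPM in control tumours, and rose with a log2 fold change of 4.02 ± 0.18. It had 0.370, 0.380 and 0.838 TPM in sgIgfbp5 cells, against 7.44, 8.07 and 6.04 TPM in sgScr cells, a log2 fold change of -3.92 ± 0.23. Itgb7 had 26.2, 23.1 and 22.3 TPM in relapsed tumours, against 7.15, 7.83 and 7.16 TPM in control tumours, a log2 fold change of 1.97 ± 0.10. In CUUC-G it had 3.14, 2.84 and 3.53 TPM in sgIgfbp5 cells, against 23.9, 38.5 and 28.3 TPM in sgScr cells, and fell by 3.12 ± 0.12 on the log2 scale. Neither chain overlapped between groups in either comparison. Transcripts under 1000 bases gave 38.8%, 19.5% and 0% of the Itgb2 TPM in the relapsed tumours.

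The alpha partners of these chains were near 0. Itgal, Itgam and Itgax had 2 counts or fewer over any group, Itgad had none, and Itgae lay between 0.0224 and 0.191 TPM over the 12 libraries. Itgae and Itga4, at 0.127 and 0.443 TPM in relapsed tumours, were far below the 23.9 TPM of Itgb7. Of the 7 leukocyte markers, 2 were tested, Csf1r and Cd68, and both moved with Itgb2 and Itgb7. Csf1r, a receptor of macrophages, was below 1 TPM in every library and had a log2 fold change of 2.18 ± 0.46 at relapse and of -4.60 ± 0.59 in CUUC-G, on 0, 3 and 1 counts in sgIgfbp5 cells, against 36, 39 and 25 counts in sgScr cells. For Cd68 the log2 fold changes were 1.22 ± 0.26 and -0.97 ± 0.22. Among the untested markers, Ptprc had no reads outside control tumour 1, at 0.0324 TPM, and Cd3e had none in any library. Lyz2, also untested, went the other way at relapse, with 5, 0 and 0 counts in relapsed tumours, against 6, 17 and 4 in control tumours. The marker sum was 5.39 to 9.21 TPM in relapsed tumours, against 3.29 to 4.66 TPM in control tumours, and 2.65 to 3.68 TPM in sgIgfbp5 cells, against 5.06 to 5.85 TPM in sgScr cells, and Cd68 made up most of it, at 6.14 ± 2.04 TPM in relapsed tumours and 3.08 ± 0.99 TPM in control tumours (SD, n = 3). The part of these markers in the Itgb2 and Itgb7 differences was not tested.

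**Figure D3:**
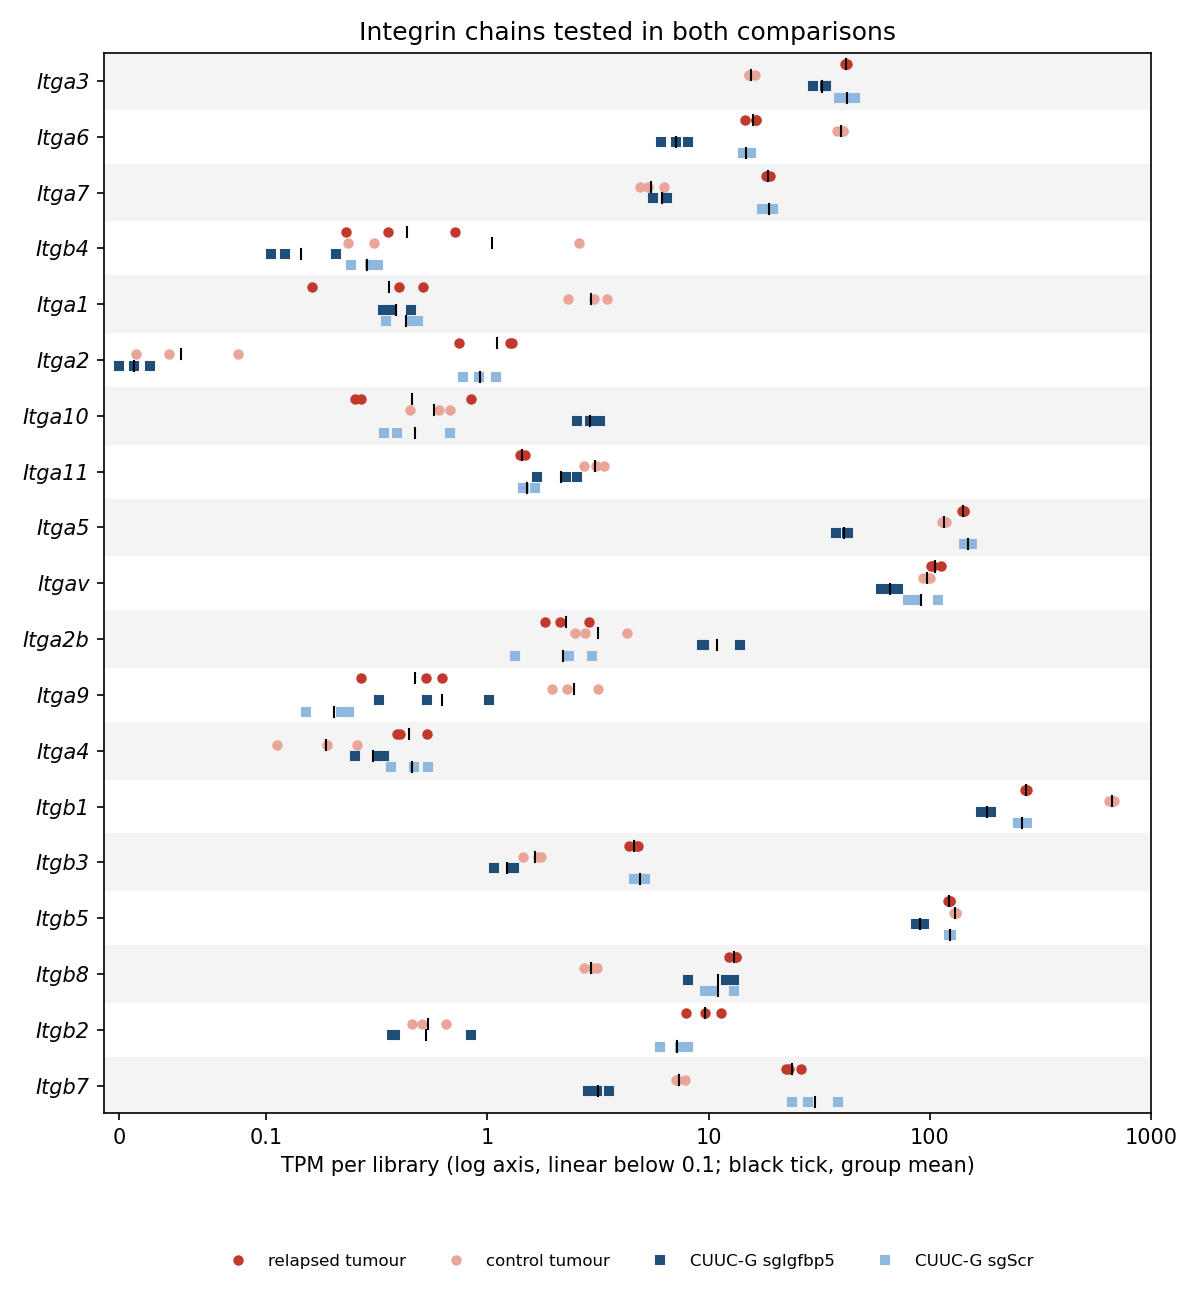
TPM of the 19 integrin chains tested in both comparisons, 1 point per library on a log axis that is linear below 0.1, with a black tick at the group mean and rows ordered by receptor class. Itgb1 is at 169.9 TPM or more in every library, Itgb2 and Itgb7 are high in relapsed tumours and sgScr cells, and Itga10 and Itga2b are highest in sgIgfbp5 cells.

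The laminin alpha chains divided the tumours. Lama1, the alpha chain of the embryonic laminin-111, had 2.0, 1.07 and 2.49 TPM in relapsed tumours, against 21.8, 23.2 and 20.7 TPM in control tumours, and fell by 3.47 ± 0.09 on the log2 scale. In control tumours 43.9% to 49.9% of this TPM came from a 565-base transcript with no annotated coding frame. The full-length transcript Lama1-201 alone had 0.744, 1.07 and 0.989 TPM in relapsed tumours, against 11.2, 11.6 and 11.6 TPM in control tumours. Lama4, a chain of mesenchymal and vascular basement membranes, had 20.1, 21.8 and 20.1 TPM in relapsed tumours, against 9.08, 11.4 and 9.93 TPM in control tumours, a log2 fold change of 1.16 ± 0.07. Lama5, the widely expressed epithelial chain, had 20.4, 21.8 and 21 TPM in relapsed tumours, against 26.9, 27.9 and 27.3 TPM in control tumours, a log2 fold change of -0.23 ± 0.04. Lama2, the chain of muscle basement membranes, had 2.31, 0.825 and 1.15 TPM in relapsed tumours, against 2.89, 4.38 and 2.89 TPM in control tumours, and fell by 1.62 ± 0.13 on the log2 scale. None of the 4 chains overlapped between the groups.

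Lama3, an alpha chain of epithelial basement membranes, stayed under 1 TPM. It had 44, 26 and 61 counts in relapsed tumours, against 3, 4 and 8 in control tumours, a log2 fold change of 3.10 ± 0.48. Of the summed laminin alpha TPM in relapsed tumours, Lama5 held 46.2% ± 1.28, Lama4 45.4% ± 1.98 and Lama1 4.07% ± 1.60. In control tumours the same chains held 43.6% ± 1.69, 16.1% ± 1.06 and 34.9% ± 0.98 (SD, n = 3). The Lama1 shares include its 565-base transcript with no annotated coding frame. The shares of Lama4 and Lama1 were far apart between the groups, and that of Lama5 was 44.9% to 47.5% in relapsed tumours and 41.7% to 44.8% in control tumours.

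In CUUC-G the laminin alpha chains came down to a single one with sgIgfbp5. Lama5 had 63.6, 66.7 and 71.8 TPM in sgIgfbp5 cells, against 24.4, 18.5 and 28.6 TPM in sgScr cells, and rose with a log2 fold change of 1.63 ± 0.12. Lama4 had 0.355, 0.540 and 0.535 TPM in sgIgfbp5 cells, against 21.4, 18.2 and 16.0 TPM in sgScr cells, and fell by 5.35 ± 0.15 on the log2 scale. Lama5 held 96.5% ± 0.83 of the laminin alpha TPM in sgIgfbp5 cells and 53.2% ± 7.67 in sgScr cells, and Lama4 held 0.680% ± 0.12 in sgIgfbp5 cells and 41.9% ± 6.40 in sgScr cells (SD, n = 3). The libraries did not overlap for either level or share.

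Of the other laminin alpha chains in CUUC-G, Lama3 had 2, 0 and 0 counts in sgIgfbp5 cells, against 38, 24 and 19 counts in sgScr cells. The sgScr to sgIgfbp5 ratio, scaled for depth, was 43.1 with a 95% interval from 11.6 to 362. Lama2 had 0.148, 0.310 and 0.459 TPM in sgIgfbp5 cells, against 0.869, 0.856 and 0.763 TPM in sgScr cells, a log2 fold change of -1.52 ± 0.26. Lama1 had 1.35, 1.43 and 2.36 TPM in sgIgfbp5 cells, against 1.26, 1.19 and 0.598 TPM in sgScr cells, a log2 fold change of 0.55 ± 0.20 (edgeR adjusted p = 0.0265). Without sgScr library 3 it was 0.33, and the call was lost without that library or sgIgfbp5 library 2 or 3 (adjusted p from 0.0597 to 0.0721) and with DESeq2 (adjusted p = 0.0523).

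Lamb1 was the leading laminin beta chain in all 4 groups. It had 114, 117 and 122 TPM in relapsed tumours, against 165, 171 and 165 TPM in control tumours, a log2 fold change of -0.36 ± 0.03. Lamb2, which is known from mature basement membranes of kidney and neuromuscular junctions, had 23.2, 22.9 and 24.0 TPM in relapsed tumours, against 44.3, 46.4 and 41.1 TPM in control tumours, a log2 fold change of -0.53 ± 0.05. Transcripts under 1000 bases gave 20.5% to 28.7% of the Lamb2 TPM in relapsed tumours and 30.3% to 40.1% in control tumours. With sgIgfbp5 the pair parted. Lamb1 had 85.7, 94.3 and 96.9 TPM in sgIgfbp5 cells, against 126, 113 and 108 TPM in sgScr cells, a log2 fold change of -0.41 ± 0.07, and Lamb2 had 43.9, 44.0 and 50.8 TPM in sgIgfbp5 cells, against 25.7, 23.7 and 21.7 TPM in sgScr cells, a log2 fold change of 0.72 ± 0.08. The share of Lamb2 in the beta chain TPM was 33.3% ± 1.34 in sgIgfbp5 cells and 16.9% ± 0.35 in sgScr cells (SD, n = 3). Neither chain overlapped between groups in either comparison.

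Lamb3, a beta chain of epithelial basement membranes, had 0.476, 0.350 and 0.578 TPM in relapsed tumours, against 0.0889, 0.153 and 0.0501 TPM in control tumours, a log2 fold change of 2.11 ± 0.49 on 70 counts against 16. It had 0.230, 0.0835 and 0.173 TPM in sgIgfbp5 cells, against 0.329, 0.436 and 0.441 TPM in sgScr cells, a log2 fold change of -1.21 ± 0.45 (edgeR adjusted p = 0.0315). The CUUC-G call was lost without sgScr library 1 or 3 or sgIgfbp5 library 2 or 3 (adjusted p from 0.0593 to 0.140) and with DESeq2 (adjusted p = 0.0838).

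Lamc1, the gamma chain of most laminins, had 86.1, 86.8 and 87.4 TPM in relapsed tumours, against 103, 111 and 102 TPM in control tumours, a log2 fold change of -0.13 ± 0.03 without overlap. Lamc1 did not pass in CUUC-G, with 66.5, 75.2 and 84.4 TPM in sgIgfbp5 cells, against 94.7, 80.3 and 85.2 TPM in sgScr cells and a log2 fold change of -0.21 ± 0.10 (edgeR adjusted p = 0.0691). It passed without sgScr library 3 or sgIgfbp5 library 2 or 3, at -0.28 to -0.30 (adjusted p from 0.0229 to 0.0358), and with DESeq2 at -0.26 (adjusted p = 0.0314). Lamc3 was not tested, at 30 counts over the relapsed and 4 over the control libraries, and 1 over the sgIgfbp5 and 22 over the sgScr libraries.

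**Figure D4:**
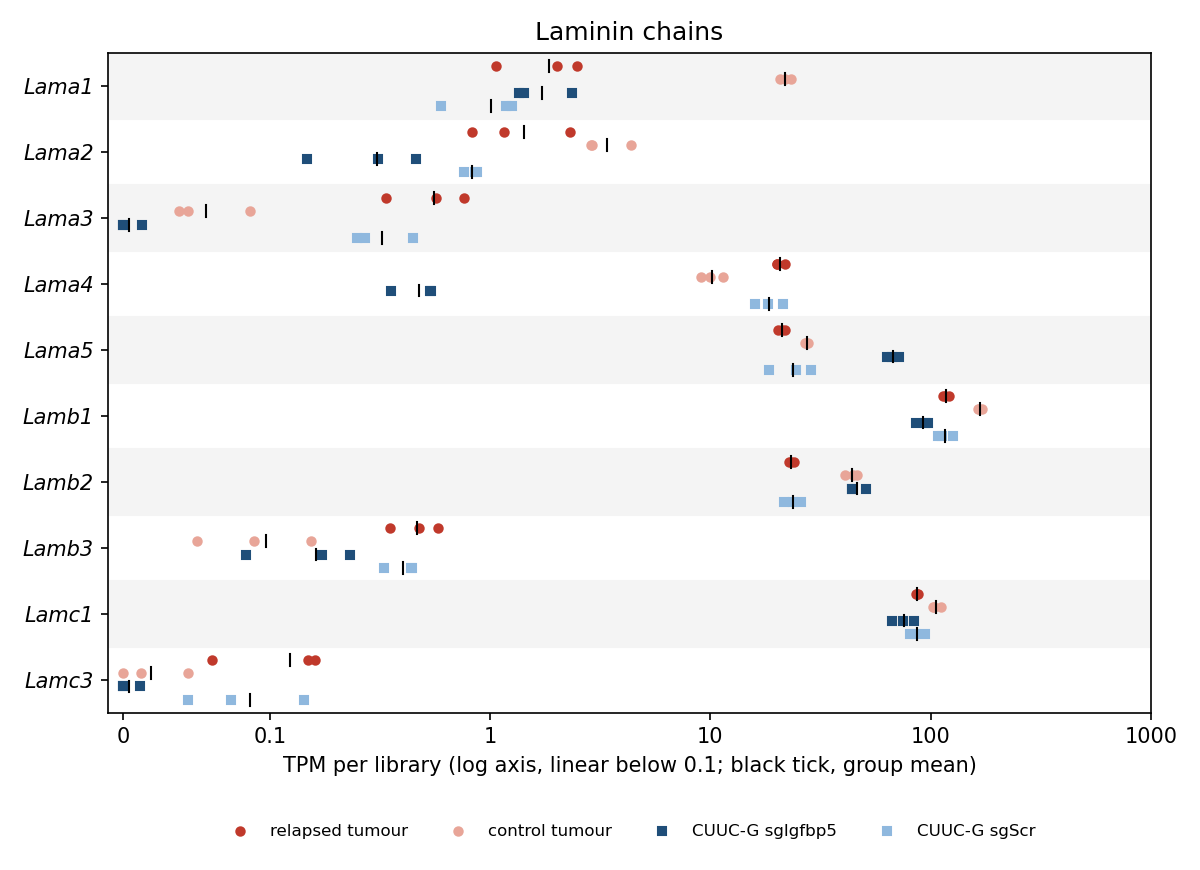
TPM of laminin chains, 1 point per library on a log axis that is linear below 0.1, with a black tick at the group mean. Lama1 stands apart in control tumours, Lama4 lies at 0.540 TPM or less in sgIgfbp5 cells and at 16.0 TPM or more in sgScr cells, and Lama5 is highest in sgIgfbp5 cells.

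Set out by trimer, Lamb1 and Lamc1 were abundant in all 4 groups and the alpha chain was the scarcest chain of every trimer set out with Lamc1, except that Lamb2 was below Lama5 in every sgIgfbp5 library and in 1 of the 3 sgScr libraries. For laminin-111, Lama1 was below Lamb1 by a factor of 63.4 in relapsed tumours and of 7.63 in control tumours. For the laminins of Lama4 with Lamb1 and Lamc1, the factor between Lamb1 and Lama4 was 5.68 in relapsed tumours and 16.5 in control tumours, and 194 in sgIgfbp5 cells and 6.26 in sgScr cells. With Lama5 in place of Lama4 it was 5.58 in relapsed tumours and 6.11 in control tumours, and 1.37 in sgIgfbp5 cells and 4.87 in sgScr cells. These ratios compare mRNA levels per transcript length and hold no test.

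**Figure D5:**
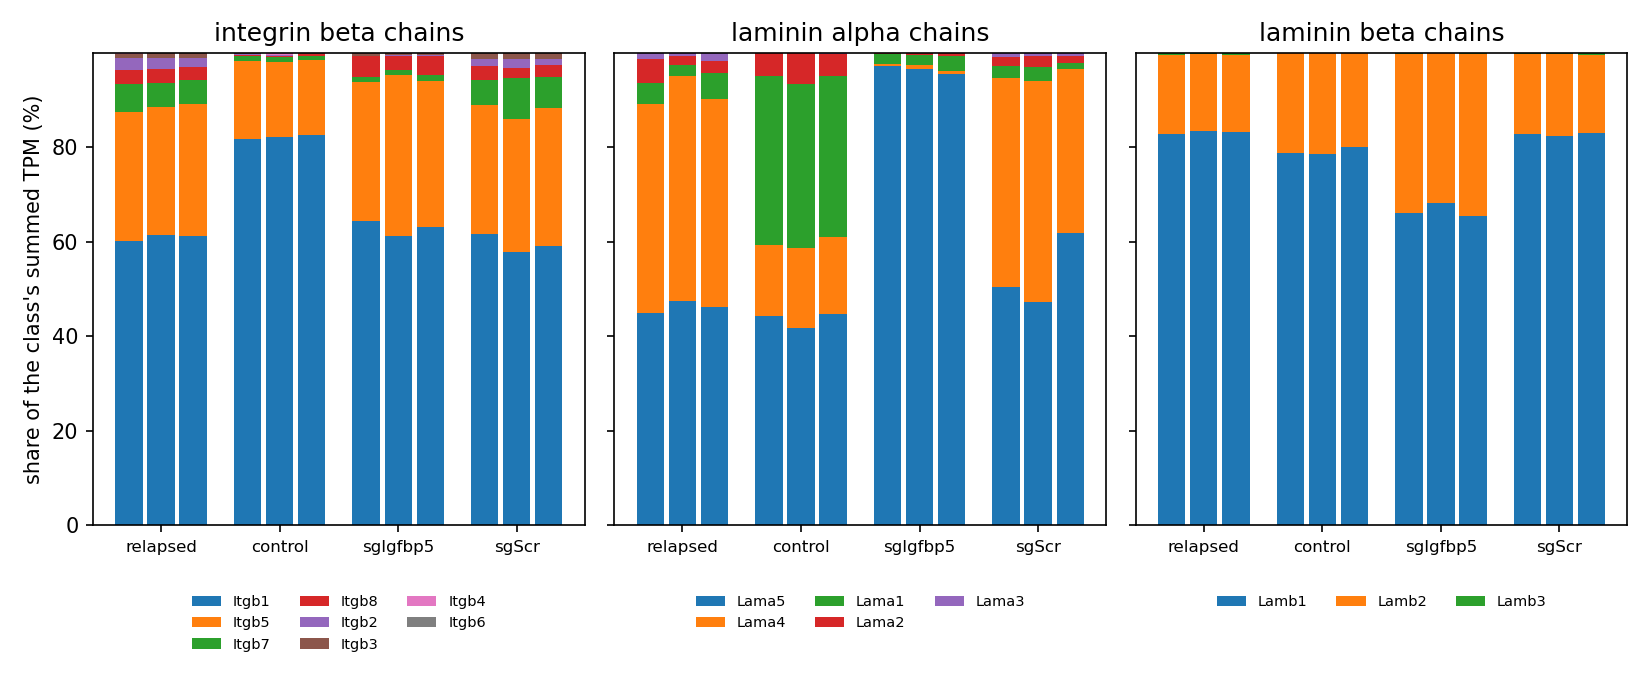
Share of each chain in the summed TPM of the integrin beta, laminin alpha and laminin beta chains, 1 bar per library, with relapsed left of control and sgIgfbp5 left of sgScr. Lama5 fills 95.5% to 97.1% of the laminin alpha bars of sgIgfbp5 cells, Lama1 fills 34% to 35.9% of those of control tumours, and Itgb1 81.8% to 82.6% of the integrin beta bars of control tumours. The Lama1 bars of the tumours include its 565-base transcript with no annotated coding frame.

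Other components of the same structures were read from lists, and each count below stands beside 36.6% of all genes higher and 36.9% lower at relapse, and 36.5% higher and 34.3% lower in CUUC-G. Of 10 basement membrane partners of laminin, 1 was higher and 8 lower in relapsed tumours, with a median log2 fold change of -0.62. Sparc, a collagen-binding matricellular protein, fell by 1.30 ± 0.03 on the log2 scale, the perlecan gene Hspg2 by 0.89 ± 0.03, Nid2, a linker of laminin and collagen IV, by 2.65 ± 0.11, and Col18a1 had a log2 fold change of -3.88 ± 0.09. In CUUC-G 2 were higher and 5 lower with sgIgfbp5, with a median of -0.21. Agrn (agrin, which binds laminin) rose with a log2 fold change of 2.32 ± 0.10 and Col18a1 with 2.61 ± 0.12, and Nid1 fell by 2.76 ± 0.11 and Fbln1 by 3.31 ± 0.09.

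Among 8 partners of epithelial laminin receptors, 7 were tested at relapse, with 5 higher and 2 lower (36.6% and 36.9% of all genes) and a median log2 fold change of 1.06. The tetraspanin Cd151, which binds the laminin-binding integrins, had a log2 fold change of 1.23 ± 0.04, the laminin receptor dystroglycan (Dag1) of 1.06 ± 0.04, the basal keratin Krt14 of 3.75 ± 0.15 and Bcam, a receptor for Lama5, of -1.56 ± 0.16. In CUUC-G 6 were tested, with 1 higher and 4 lower with sgIgfbp5 (36.5% and 34.3% of all genes) and a median of -0.98. Cd151 fell by 1.87 ± 0.07, Krt14 by 2.20 ± 0.16, Dag1 by 0.94 ± 0.08 and Bcam by 1.01 ± 0.21 on the log2 scale. Krt14 is also an epithelial marker, and the sums of those markers moved with this list in both comparisons, as given above. Their part in it was not tested.

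Of 16 integrin ligands other than collagens, 15 were tested at relapse, with 10 higher and 5 lower (36.6% and 36.9% of all genes) and a median log2 fold change of 0.38. Thrombospondin (Thbs1) rose with a log2 fold change of 2.36 ± 0.03, osteopontin (Spp1), a ligand of Itgav and Itga9 receptors, with 2.55 ± 0.03 and nephronectin (Npnt) with 3.89 ± 0.09, and periostin (Postn) fell by 4.35 ± 0.04. With sgIgfbp5, 2 of 15 were higher and 13 lower (36.5% and 34.3% of all genes), with a median of -1.86. The log2 fold changes were -2.75 ± 0.09 for Thbs1, -2.63 ± 0.09 for Spp1, -2.17 ± 0.08 for Ccn2 (a CCN matricellular protein) and -4.48 ± 0.17 for Postn.

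Among 25 activators and adaptors that link integrins to actin, 24 were tested and 10 were higher and 10 lower at relapse (36.6% and 36.9% of all genes), with a median log2 fold change of -0.08. The actin crosslinker Actn1 rose with a log2 fold change of 1.72 ± 0.03, and Tln2 (talin 2) fell by 1.69 ± 0.04, Lims1 (PINCH) by 1.26 ± 0.04 and the filamin Flna by 0.62 ± 0.03. With sgIgfbp5, 5 of 24 were higher and 13 lower (36.5% and 34.3% of all genes), with a median of -0.27. The 18 calls of 24 in CUUC-G are close to the 70.8% of all genes called there. Parvb (beta-parvin) fell by 5.87 ± 0.20, Parva (alpha-parvin) by 1.20 ± 0.07, Actn1 by 1.59 ± 0.07 and the integrin activator Fermt2 (kindlin-2) by 0.99 ± 0.07 on the log2 scale.

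Markers of other cells that carry these chains also differed. The 6 endothelial markers summed to 36.9 to 40.0 TPM in relapsed tumours, against 0.518 to 1.05 TPM in control tumours, and 2.49 to 3.35 TPM in sgIgfbp5 cells, against 34 to 37.8 TPM in sgScr cells. Kdr averaged 37.9 TPM in relapsed tumours and 0.387 TPM in control tumours, and 1.93 TPM in sgIgfbp5 cells and 35.4 TPM in sgScr cells, with Cdh5 and Emcn at 0 to 0.108 TPM in the 12 libraries. At relapse 2 of the 6 were tested, with Kdr higher and Tek lower (36.6% and 36.9% of all genes). Tek had 0, 4 and 1 counts in relapsed tumours, against 12, 17 and 16 in control tumours. It also ran against Kdr in CUUC-G, with 16, 5 and 13 counts in sgIgfbp5 cells and none in sgScr cells. The 5 smooth muscle markers summed to 1152 to 1203 TPM in relapsed tumours, against 2119 to 2196 TPM in control tumours, and 148 to 162 TPM in sgIgfbp5 cells, against 1157 to 1208 TPM in sgScr cells. The 6 fibroblast markers summed to 1545 to 1570 TPM in relapsed tumours, against 2916 to 3009 TPM in control tumours, and 681 to 774 TPM in sgIgfbp5 cells, against 1443 to 1613 TPM in sgScr cells. Most of this sum was Col1a1. At relapse 3 of the 6 were lower and 3 higher, with log2 fold changes of 3.27 ± 0.08 for Pdgfra, 2.33 ± 0.56 for Lum and 0.33 ± 0.05 for Dcn, and in CUUC-G 4 of the 5 tested were lower and Pdgfrb was higher, at 0.39 ± 0.10. The part of these markers in the levels of Itga1, Itga7, Itga11, Lama2 and Lama4 was not tested.

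The chains left to account for were low. Itga8, a receptor chain of smooth muscle and kidney mesenchyme, had 5 counts over the relapsed and 21 over the control libraries and none in CUUC-G. It was not tested, as were Itgad, Itgae, Itgal, Itgam, Itgax, Itgb6 and Lamc3. In all, 18 chains reached 5 TPM in at least 1 group and 11 stayed under 1 TPM in all 4.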

How the data were processed

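Poly(A)-selected RNA was extracted with TRIzol and made into libraries with a stranded Illumina TruSeq mRNA kit, per the labels' protocols. Salmon and the builds GRCm38 (mm10) and GRCh38 (hg38) are named in the submitters' processing notes, with no version or role. The authors deposited estimated counts and TPM per transcript for the tumours and, per gene, estimated counts rounded to whole numbers and TPM for CUUC-G. The transcript annotation release is not given in the sources used here.

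Transcript values were summed per gene (147828 transcripts, 55858 genes) and counts rounded. CUUC-G columns marked mI were read as Igfbp5-targeted, by analogy with the human columns marked hI. Genes passing filterByExpr were tested with edgeR 4.0.16 in R 4.3.3 (TMM, robust quasi-likelihood, two-sided, Benjamini-Hochberg adjustment over all genes tested, threshold 0.05). The standard error is the log2 fold change over the square root of F. TPM gives levels and counts give fold changes. "No overlap" refers to CPM and was read for the chains only, not for all genes. Isoform shares had exact permutation tests (scipy 1.17.1). Ratios of low counts have exact intervals at 95%, which cover counting error only. On simulated data of 14373 genes for the tumours, 43 of 50 genes changed 2-fold were called, and of 14553 genes for CUUC-G, 42 of 50. Few genes were changed in that simulation, whereas 73.5% and 70.8% of all genes were called in the data. It therefore does not show how the scaling or the recovery behaves under so broad a change.

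The members and the lists of partner and marker genes were chosen with earlier results of these data known. Values per library are given for members averaging at least 5 TPM in a group, or past the threshold with a 2-fold change and no overlap. Up to 4 genes per partner list are named by smallest p. Alternatives covered scaling, DESeq2 1.42.0, limma 3.58.1 on log2 TPM, filters, a replicate block, left-out libraries, a fold threshold and protein-coding transcripts only. Exon coordinates and sequences come from GRCm38 with GENCODE M21. Results for 1 chain and 1 marker are not reported here, though the counts over chains and sums of markers include them.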

Additional observations from a re-analysis of the deposited data

How the results depend on the processing

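Leaving out each library in turn gave 14 to 15 chains higher and 11 to 12 lower at relapse, and 5 to 6 higher and 17 to 19 lower in CUUC-G. All genes called ran from 10152 to 10516 at relapse and from 9466 to 10391 in CUUC-G. Limma on log2(TPM + 1) or log2(TPM + 0.1) took genes with a mean of at least 1 TPM. At relapse it gave 9 chains higher and 12 lower of 23 tested, so that more were lower than higher. In CUUC-G it gave 4 chains higher and 13 lower of 21. All genes also had more lower than higher at relapse with log2(TPM + 1), 3529 higher and 5139 lower of 13333, with a median of -0.12. In CUUC-G 4827 of 13347 genes were higher and 3871 lower in that fit. Without the TPM filter 12 chains were higher and 11 lower at relapse and 4 higher and 16 lower in CUUC-G. Of all genes, 3854 were then higher and 5103 lower at relapse, and 4950 higher and 4237 lower in CUUC-G. Itga4 at relapse (limma adjusted p = 0.133) and Itga9 in CUUC-G (0.129) did not pass in that fit. DESeq2 gave 15 chains higher and 11 lower at relapse and 5 higher and 18 lower in CUUC-G. It called 5163 of all genes higher and 5024 lower at relapse, and 4835 higher and 5379 lower in CUUC-G. In CUUC-G, Itgb4, Lamb3, Itga4, Itga11 and Lama1 did not pass (DESeq2 adjusted p from 0.0523 to 0.150). A fold of at least 2 left 6 chains lower and 3623 genes called at relapse, and 4 chains higher and 4559 genes called in CUUC-G. Itgb5 turned at relapse to -0.0878 with log2(TPM + 1), with or without the TPM filter, and -0.0884 with log2(TPM + 0.1) and Itgb4 to -0.34 without the TPM filter. Itgb8 turned in CUUC-G to 0.0263 with library size scaling, and leaving out single libraries gave -0.27 (without sgIgfbp5 library 1) to 0.0311 (without sgIgfbp5 library 2), with 0.00976 without sgScr library 1. The cause was not tested. Library size scaling moved the CUUC-G median of all genes to 0.17, from 0.06. Same-numbered libraries did not deviate together (correlations 0.0129, 0.0148 and 0.00615 at relapse, where each correlated best with its own number, and 0.0364, 0.0930 and -0.0817 in CUUC-G). With the replicate number as a block, 14 chains were higher and 11 lower at relapse, and 7 higher and 17 lower in CUUC-G, where Itgb4 (edgeR adjusted p = 0.0512) and Itga4 (0.0690) did not pass. Of all genes, that fit called 5208 higher and 5264 lower at relapse, and 5155 higher and 4882 lower in CUUC-G. Chains under about 1 TPM rest on few counts.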
